A study of Mus musculus with 11 samples.

Results

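The Notch pathway was examined through 10 of its genes in the main olfactory epithelium (MOE), the sheet of the nasal cavity in which olfactory sensory neurons (OSNs) are made from basal progenitors. These were the receptors Notch1, Notch2 and Notch3, the ligands Dll1, Dll3, Jag1 and Jag2, the receptor-modifying glycosyltransferase Mfng, and the target genes Hes1 and Hes5. Every probe set that the array annotation assigned to exactly 1 of these symbols was taken, which gave 17 of the 45101 probe sets on the array and 10 of its 18194 single gene symbols, and none of the 17 was shared with another gene. All 17 passed the minimum mean signal of 20 over all arrays and were among the 33662 probe sets tested. The Notch2 probe set 1451889_at did so only through the mutant arrays, with means of 15.0 in wild type and 32.0 in mutant samples.

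The arrays compared newborn mice with and without Bcl11b, a zinc finger transcription factor of the OSN lineage, and were made to look for genes downstream of it. All mice were of the BALB/c strain, were taken at postnatal day 0 and were born to parents heterozygous for a conventional Bcl11b knockout, so the mutants lacked the gene in every cell and not in OSNs alone. There were 5 wild type mice (WT 1 to WT 5, all male) and 6 Bcl11b-/- mice (KO 1 to KO 6, of which KO 3 and KO 6 were female), with 1 array for each whole MOE. The litter of each mouse was not given in the sources used here. In whole tissue, fewer cells of a type and less RNA per cell cannot be told apart.

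Notch signalling passes between touching cells. A Delta-like or Jagged ligand on one cell binds a Notch receptor on its neighbour, the receptor is cut, and its freed intracellular part joins the DNA-binding protein RBPJ to switch on target genes, among them the Hes repressors. Hes1 and Hes5 repress proneural genes such as Neurog1, and through this lateral inhibition the pathway is known for holding progenitors back from becoming neurons. In the olfactory epithelium it is also known for its part in setting sustentacular cells, the supporting cells, apart from neurons.

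The sequences in which these genes could be read for such regulation are their promoters. In RefSeq promoters of the mouse build GRCm38.p6, 8 of the 10 genes (all but Mfng and Hes1) had an entry, with 9 starts between them. The 250 bases before each start were searched on both strands for the RBPJ motif GTGGGAA. Of the 8 genes, Hes5 held it, with 2 matches that began 226 and 83 bases before the start. It is shown because Hes5, by its probe set 1456010_x_at, was also the gene with the largest change here. The sequence is from chr4:154960673-154960922 on the plus strand, with both matches in capitals.
Hes5 promoter: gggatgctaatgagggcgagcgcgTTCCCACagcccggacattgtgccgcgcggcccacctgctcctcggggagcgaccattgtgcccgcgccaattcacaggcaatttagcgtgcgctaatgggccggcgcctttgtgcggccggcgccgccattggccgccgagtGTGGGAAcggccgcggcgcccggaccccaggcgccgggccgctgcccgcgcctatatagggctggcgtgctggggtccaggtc
At least 1 match was present in 5.42% of 32851 mouse promoters of this length, and 2 or more in 0.161%. Outside the 10 genes, 5 of 10 other target genes of the pathway had an entry, and Hes7 and Hey2 held 1 match each, shown with the bases around it for comparison with Hes5. The Hes7 window is chr11:69120263-69120289 on the plus strand and the Hey2 window chr10:30842974-30843000 on the minus strand.
Hes7 window: ctcccctcacTTCCCACatttggggct
Hey2 window: cgcggtggcaTTCCCACgcctctgcca
The N-box CACNAG, a letter pattern that Hes proteins bind, was found in 3 of the 8 genes, Notch1, Notch2 and Notch3, against 36.7% of all promoters. The E-box CAGCTG, a pattern of proneural factors, was found in 3 of the 8 genes, Dll1 (at 1 of its 2 starts), Dll3 and Jag1, against 13% of all promoters. These matches are letters in a window and were not tested as binding sites.

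Bcl11b itself gave the check of the genotype labels. All 4 of its probe sets fell in Bcl11b-/- MOE with no overlap between the groups, and the brightest, 1435227_at, went from a signal of 3257 ± 529 (SD, n = 5) to 893 ± 242 (n = 6), a difference of -1.88 on the log2 scale (SE 0.17, with limma's adjusted p = 1.2e-05). Array medians ran from 56.6 to 85.7 in wild type and from 62 to 86.5 in Bcl11b-/- samples. The added poly-A control transcripts, spiked into the RNA before labelling, were brighter on WT 1, WT 2, KO 4, KO 5 and KO 6 than on the other 6 arrays. The ratio of 3' to 5' GAPDH signal, a sign of RNA quality, lay between 1.88 and 2.27 in wild type samples and was highest on KO 2 (2.42) and KO 3 (2.70). Leaving out KO 2 and KO 3 together is named below as leaving out the arrays of highest GAPDH ratio.

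None of the 17 Notch pathway probe sets passed the test over all probe sets, limma with Benjamini-Hochberg adjustment and a threshold of 0.05. Over the whole array 153 probe sets passed it, 0.455% of those tested, of which 82 (0.244%) were higher and 71 (0.211%) lower in Bcl11b-/- MOE. At an unadjusted p under 0.05 there were 3 of the 17, all higher in Bcl11b-/- samples, against a background of 6.92% in either direction and 4.47% higher. They were Mfng, 1 of 2 Hes5 probe sets, and the dim Notch2 probe set that passed the minimum signal only through the mutant arrays. The exact permutation test over the arrays, unadjusted, gave 2 of the 17, Mfng and Hes5, both higher, against 7% of all tested probe sets in either direction and 4.44% higher. The log2 changes ran from -0.15 to 0.79 with a median of 0.20, where the median of all tested probe sets was 0.047, and 12 of 17 estimates (70.6%) were positive against 60.4% of all. In none of the 17 were the groups apart without overlap, which was so for 1.29% of all tested probe sets.

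**Figure D1:**
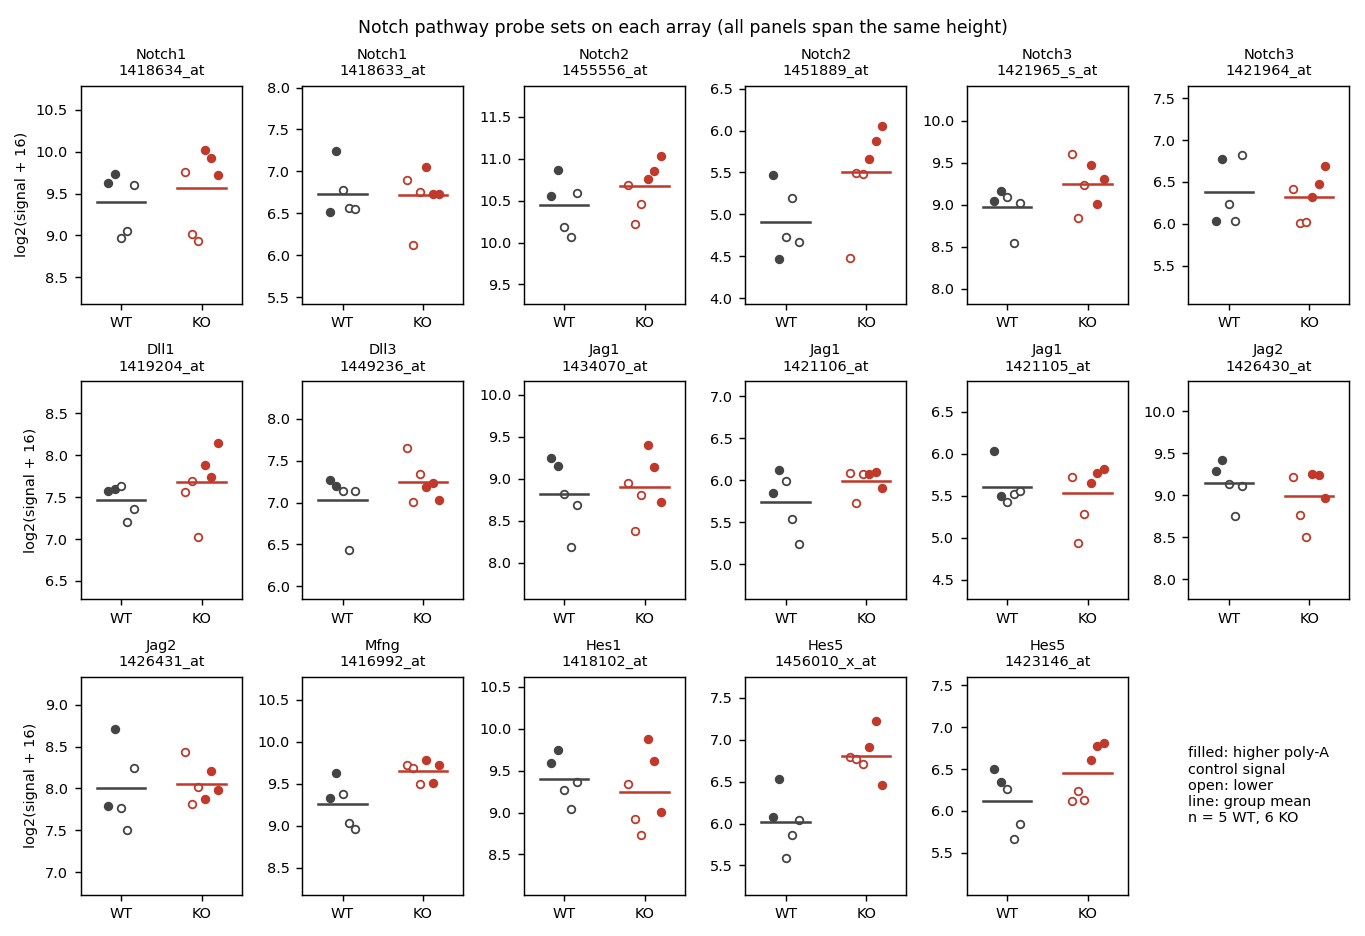
Signal of each of the 17 Notch pathway probe sets on every array, as log2(signal + 16) on the vertical axis, with wild type (WT, n = 5) and Bcl11b-/- (KO, n = 6) arrays side by side. Lines are group means and filled points are arrays with the higher poly-A control signal. The groups overlap in every panel, and in the Hes5 1456010_x_at panel 5 of 6 KO points lie above the highest WT point.

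The 3 Notch receptors, the membrane proteins that receive the signal, did not pass the test. For Notch1, the brighter probe set 1418634_at read 772, 835, 487, 515 and 759 on WT 1 to WT 5 and from 473 to 1022 with a median of 838 in Bcl11b-/- samples. The groups overlapped at both ends, with 3 KO arrays above every WT array and 1 below. The log2 change was 0.17 (SE 0.21, 95% confidence interval -0.28 to 0.61, limma adjusted p = 0.975). The signal followed the poly-A controls, being higher on the brighter-control arrays by 0.47 on the log2 scale within wild type. Within Bcl11b-/- samples it was higher there by 0.66. With the brighter and dimmer control groups as a covariate, the log2 change was 0.11. Without the arrays of highest GAPDH ratio it was 0.46 (adjusted p = 0.230), and on the spiked hybridization controls in place of GAPDH it was -0.020. The second Notch1 probe set, 1418633_at, had means of 92.2 and 91.0.

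Notch2 was read by 1455556_at at 1485, 1851, 1151, 1055 and 1529 on WT 1 to WT 5 and from 1174 to 2082 with a median of 1676 in Bcl11b-/- samples. A single KO array, KO 6, lay above the highest wild type value, and none lay below the lowest. The mutant mean was higher by a log2 change of 0.22 (SE 0.16, interval -0.13 to 0.56, limma adjusted p = 0.930), and without the arrays of highest GAPDH ratio it was 0.38 (adjusted p = 0.265). Its other probe set, 1451889_at, was dim, with 28.3, 6.1, 10.6, 20.5 and 9.5 in wild type and from 6.3 to 50.3 with a median of 31.8 in Bcl11b-/- samples. Of the 6 KO arrays 5 exceeded every wild type array, while KO 1 sat at the bottom of the wild type range. The log2 change of 0.60 (SE 0.28, interval 0.013 to 1.19) had a limma adjusted p of 0.704, and at these signals it depends on the constant of 16 added before the logarithm, being 1.02 with a constant of 1 and 0.27 with 64.

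Notch3, the receptor known from mural cells of blood vessels as well as from progenitors, read 511, 558, 529, 358 and 504 on WT 1 to WT 5 by 1421965_s_at. The Bcl11b-/- samples ran from 442 to 761 with a median of 601, and 4 of the 6 were above every wild type array. This gave a log2 change of 0.27 (SE 0.16, interval -0.07 to 0.61, limma adjusted p = 0.869). The second Notch3 probe set, 1421964_at, gave -0.058 from means of 69.7 and 65.1. Of the vessel markers measured beside it, 0 of 5 endothelial and 0 of 4 pericyte and smooth muscle genes passed the test. The median log2 change was 0.15 for the endothelial and 0.020 for the pericyte and smooth muscle genes. The latter were not alike, with 0.52 for Myh11, 0.049 for Rgs5, -0.0085 for Acta2 and -0.098 for Pdgfrb. Myh11 was the dimmest of them, with means of 83.6 and 133 (limma adjusted p = 0.744), and weighs little in their sum. The summed signal of the pericyte and smooth muscle genes ran from 15078 to 20234 in wild type and from 15589.8 to 20129 in Bcl11b-/- samples.

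The Delta-like genes were measured by 1 probe set each. Dll1, the ligand that neighbouring progenitors present to each other, read 174, 178, 182, 131 and 148 on WT 1 to WT 5 and from 114 to 268 with a median of 194 in Bcl11b-/- samples. The mutant values spread to both sides of the wild type range, 4 above and 1 below it, with a coefficient of variation of 26.2% against 13.5%. Its log2 change was 0.20 (SE 0.18, interval -0.18 to 0.59, limma adjusted p = 0.958), and without the arrays of highest GAPDH ratio it was 0.36 (adjusted p = 0.346). On the arrays with brighter poly-A controls the difference was 0.34 and on the others 0.034.

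Dll3, a divergent member that in mouse is known to act inside the cell against Notch rather than as a ligand at its surface, read 138, 131, 125, 70.3 and 124 on WT 1 to WT 5. The Bcl11b-/- samples ran from 113 to 185 with a median of 132, so that 4 of 5 wild type values lay inside the mutant range and WT 4 lay far below it. Between the groups the log2 change was 0.21 (SE 0.18, interval -0.17 to 0.59, limma adjusted p = 0.957), and its direction was not the same in the array groups set by the poly-A controls, with -0.08 on the brighter and 0.43 on the dimmer. Without WT 4 the log2 change was 0.057, and without KO 1, the highest mutant array, 0.13. The difference Dll3 minus Dll1, taken on each array, averaged -0.44 ± 0.21 (SD) in wild type and -0.43 ± 0.54 in Bcl11b-/- samples, and the exact two-sided permutation test gave p = 0.991.

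The Jagged ligands, the second class of Notch ligands, also did not pass the test. Jag1 by its brightest probe set 1434070_at read 593, 555, 437, 275 and 395 on WT 1 to WT 5 and from 317 to 661 with a median of 454 in Bcl11b-/- samples. The ranges covered each other except for KO 4 at the top and WT 4 at the bottom. The difference in means came to a log2 change of 0.08 (SE 0.20, interval -0.35 to 0.51, limma adjusted p = 0.989), against 0.24 without the arrays of highest GAPDH ratio. The dimmer Jag1 probe sets 1421106_at and 1421105_at gave 0.25 from means of 39.0 and 48.0, and -0.078 from means of 33.4 and 31.3.

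Jag2 by 1426430_at read 611, 672, 544, 414 and 536 on WT 1 to WT 5 and from 345 to 595 with a median of 533 in Bcl11b-/- samples. No KO array was above the wild type range and KO 3 was below it. The log2 change was -0.15 (SE 0.17, interval -0.50 to 0.21, limma adjusted p = 0.971), and 1426431_at gave 0.049 from means of 252.9 and 252.7. Jag2 minus Jag1 on each array averaged 0.32 ± 0.19 (SD) in wild type and 0.09 ± 0.27 in Bcl11b-/- samples, a change of -0.23 (exact two-sided permutation p = 0.152, 0.227 after adjustment over the 3 gene pairs compared).

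Mfng, which adds a sugar to Notch receptors and so alters how they respond to Delta-like and Jagged ligands, had the second lowest p of the 10 genes. Its probe set 1416992_at read 627, 774, 652, 506 and 481 on WT 1 to WT 5. The Bcl11b-/- samples read 829.8, 809, 705, 866, 712 and 830.5 on KO 1 to KO 6, where 4 of 6 exceeded every wild type array and KO 3 and KO 5 lay between WT 3 and WT 2. The means were 608 ± 119 (SD, n = 5) and 792 ± 67.6 (n = 6), a difference of 0.39 on the log2 scale (SE 0.14, interval 0.09 to 0.68). The unadjusted exact permutation p was 0.0108, but over all probe sets the limma adjusted p was 0.450. With arrays scaled on the spiked hybridization controls the difference was 0.20 (adjusted p = 0.536). The difference was 0.20 on the arrays with brighter poly-A controls and 0.51 on the others.

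Hes5 stood nearest to the threshold. This repressor is among the most direct transcriptional targets of Notch in neural progenitors. Of its 2 probe sets, 1456010_x_at was the brighter by mean signal over all arrays, mutant arrays included. In wild type alone it was the dimmer, with a mean of 50.4 against 55.4 for 1423146_at. The mutant means were 97.6 and 73.1, so it was picked through the group in which it was high. It read 51.5, 76.2, 32.2, 42.3 and 50 on WT 1 to WT 5, and 94.8, 92.9, 88.7, 104, 133 and 71.8 on KO 1 to KO 6. All mutant arrays but KO 6 lay above every wild type array, and KO 6 lay below WT 2 alone. The means were 50.4 ± 16.3 (SD, n = 5) and 97.6 ± 20.4 (n = 6), a difference of 0.79 on the log2 scale (SE 0.19, interval 0.38 to 1.19). At these signals it too depends on the added constant, being 0.97 with a constant of 1 and 0.50 with 64. The exact permutation p was 0.0043 and the limma adjusted p was 0.0964, so Hes5 did not pass over all probe sets, where it ranked 243 by p. The difference was 0.56 on the arrays with brighter poly-A controls and 0.92 on the others. Leaving out WT 2, the brightest wild type array for this probe set, gave a log2 change of 0.91 with an adjusted p of 0.0493, the only single array whose removal carried it past the threshold.

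The second Hes5 probe set, 1423146_at, read 74.9, 65.0, 60.9, 34.8 and 41.4 on WT 1 to WT 5 and from 53.5 to 96.3 with a median of 70.6 in Bcl11b-/- samples. The 3 KO arrays above the wild type range, KO 4, KO 5 and KO 6, were those with the brighter poly-A controls. Its log2 change was 0.32 (SE 0.21, interval -0.11 to 0.76, limma adjusted p = 0.893). The changes of the 2 Hes5 probe sets differed by 0.47, which the exact permutation test did not separate (p = 0.102), and the mean of both gave a log2 change of 0.56 (limma adjusted p = 0.338). A probe set whose name ends in x_at may also take up signal from related transcripts.

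Hes1, the other repressor, which is expressed in supporting cells and progenitors of many epithelia and is also driven by signals other than Notch, read 757, 840, 601, 511 and 643 on WT 1 to WT 5. The Bcl11b-/- samples read 632, 469.8, 409, 926, 766 and 500.0 on KO 1 to KO 6, with 1 above and 3 below the wild type range. The means were 671 ± 130 (SD, n = 5) and 617 ± 198 (n = 6), a difference of -0.15 on the log2 scale (SE 0.20, interval -0.57 to 0.26, limma adjusted p = 0.975). Among the mutants the 2 female samples were lower than the 4 male by 0.57, and with male mice alone the log2 change was 0.036.

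**Figure D2:**
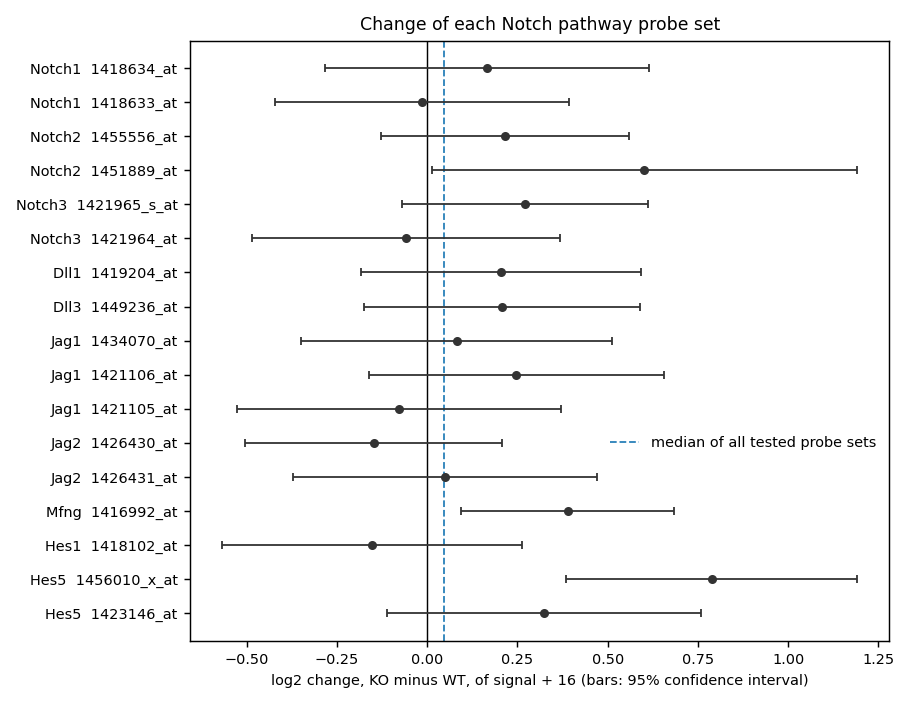
Log2 change from wild type (n = 5) to Bcl11b-/- (n = 6) of log2(signal + 16) for each Notch pathway probe set on the horizontal axis, with 95% confidence intervals from limma as bars. The dashed line is the median of all tested probe sets, 0.047, and the intervals of 3 probe sets, Hes5 1456010_x_at, Mfng 1416992_at and Notch2 1451889_at, lie wholly above 0, before adjustment over all probe sets. The Notch2 one passed the minimum signal only through the mutant arrays.

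Hes5, by its brighter probe set 1456010_x_at, and Hes1 were then set against each other on each array. The size of the difference depends on the probes and only its change between groups can be read. Hes5 minus Hes1 was -3.52, -3.22, -3.68, -3.18 and -3.32 on WT 1 to WT 5 and -2.55, -2.16, -2.02, -2.97, -2.39 and -2.56 on KO 1 to KO 6. Every Bcl11b-/- array lay above every wild type array for this probe set. How often such differences between genes separate the groups over the whole array was not counted. The change was 0.94, from -3.38 ± 0.21 (SD) to -2.44 ± 0.34, with an exact two-sided permutation p of 0.0043 and 0.0130 after adjustment over the 3 pairs, where 0.00216 is the smallest p that the 462 divisions of the arrays allow. It was 0.73 on the arrays with brighter poly-A controls and 1.15 on the others, and between 0.86 and 1.05 with any single array left out. Without KO 2 and KO 3, which had the highest 3' to 5' GAPDH ratios, it was 0.77 (exact p = 0.0079). The probe set 1456010_x_at was picked by mean signal over all arrays, which includes the mutant values under test. Wild type signal alone would have picked the other Hes5 probe set, 1423146_at. By 1423146_at, a comparison added after the data were seen, the groups overlapped, from -3.52 to -3.005 in wild type and from -3.27 to -2.20 in Bcl11b-/- samples. Of the latter, 4 of 6 lay above the wild type range. The change was then 0.48 with an exact p of 0.0433, which was 0.130 when adjusted over the 3 pairs with this probe set in place of the brighter one. The change of 0.94 combined a log2 change of 0.79 in Hes5 with one of -0.15 in Hes1, neither past the test over all probe sets. It does not show the change of either alone.

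**Figure D3:**
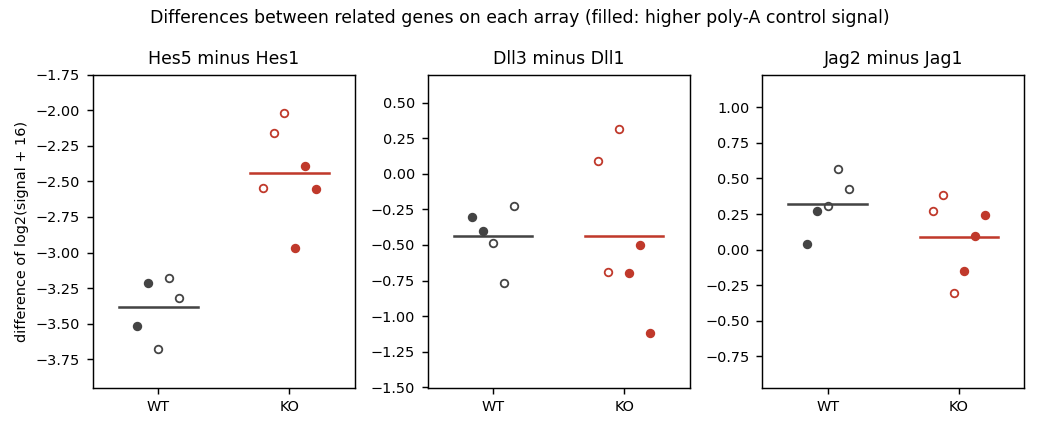
Difference of log2(signal + 16) between the brightest probe sets of related genes on each array for Hes5 minus Hes1, Dll3 minus Dll1 and Jag2 minus Jag1, with wild type (n = 5) and Bcl11b-/- (KO, n = 6) arrays side by side, group means as lines and the arrays of higher poly-A control signal filled. Brightest is by mean signal over all arrays, mutant arrays included. The 6 KO points of Hes5 minus Hes1, from -2.97 to -2.02, lie above the 5 WT points, from -3.68 to -3.18, while the groups overlap in the other panels. With the other Hes5 probe set, not drawn, the groups overlap.

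Most of the 17 probe sets were higher where the poly-A controls were brighter. Within wild type, 17 of 17 were higher on the arrays with brighter controls, by a median of 0.36, and within Bcl11b-/- samples 15 of 17, by a median of 0.35, against 78.1% and 77.4% of all probe sets with medians of 0.20 and 0.20. After scaling each array to its median, the counts were 13 and 11 of 17, against 44.1% and 47.1% of all. The poly-A controls were brighter on 2 of 5 wild type and 3 of 6 mutant arrays.

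Of 54 further genes of the pathway, 46 were tested, and none passed on its brightest probe set. The estimates were positive for 31 of the 46 (67.4%, against 60.4% of all), with a median log2 change of 0.097, and 5 were under an unadjusted p of 0.05, against 6.92% of all. Over all 89 tested probe sets of these genes, 6 were under it and 61.8% were positive. By role, the medians were 0.12 over 8 genes of receptor cleavage, 0.11 over 4 of receptor glycosylation, 0.045 over 12 of ubiquitin and trafficking, 0.18 over 9 of the nuclear complex and its corepressors, 0.070 over 8 other Hes, Hey and feedback targets, and -0.20 over 4 other ligands and ligand-like proteins. Rbpj, the DNA-binding partner of the cut receptor, named for that role after its values were seen, had a log2 change of 0.14 (limma adjusted p = 0.922) from means of 2014 and 2222.

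Of the 89 probe sets 1 passed the test over all probe sets, higher in Bcl11b-/- MOE, where 0.455% of all passed and 0.244% were higher. It belonged to Tle1, a Groucho family corepressor that Hes proteins recruit. By 1422751_at, Tle1 read 745, 841, 718, 645 and 710.5 on WT 1 to WT 5 and from 1003 to 1379 with a median of 1105 in Bcl11b-/- samples. The groups did not overlap, and the log2 change was 0.64 (SE 0.12, limma adjusted p = 0.0221), with 0.54 on the arrays with brighter poly-A controls and 0.70 on the others. The other Tle1 probe set, 1434033_at, which was the brighter, gave 0.21 (SE 0.19, adjusted p = 0.958). The call of 1422751_at was lost when any one of KO 1, KO 5, WT 1, WT 3, WT 4 and WT 5 was left out, with adjusted p reaching 0.0837, while the log2 change stayed between 0.59 and 0.69.

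The 8 further genes of largest change did not pass and are given as values. Among the target genes, Hey2 is a Hes-related repressor and, like Hes7, held a promoter match shown above. Hey2 averaged 153 ± 79.2 (SD, n = 5) and 298 ± 124 (n = 6), a difference of 0.87 on the log2 scale (SE 0.31, with limma's adjusted p = 0.447). Its wild type arrays read 131, 290.5, 92.6, 110 and 141, so that all but WT 3 lay inside the mutant range of 102 to 426. The lowest mutant value was that of KO 2, and without this array the Hey2 difference was 1.13 with an adjusted p of 0.0459. Nrarp, a feedback inhibitor that Notch induces, had 0.33 by 1417985_at (adjusted p = 0.693), with 5 of 6 mutant arrays above the wild type range. Its dimmer probe set 1417986_at gave 0.15 (limma adjusted p = 0.969) from means of 145 and 164. Hes7, which is not among these 8, had 0.080 (limma adjusted p = 0.991) from means of 31.2 and 33.9.

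Dtx1, a cytoplasmic regulator of Notch, had the opposite sign, with 1046 ± 154 (SD, n = 5) and 736 ± 128 (n = 6), a difference of -0.50 on the log2 scale (SE 0.15, with limma's adjusted p = 0.220), with 5 of 6 mutant arrays below the wild type range. Dlk1 and Dlk2, ligand-like proteins without the domain that binds Notch in the usual way, had -0.46 (adjusted p = 0.666) and -0.29 (adjusted p = 0.872). Tle4, a relative of Tle1, had 0.47 (adjusted p = 0.582), Lfng, a relative of Mfng, 0.40 (adjusted p = 0.770), and the receptor Notch4 0.30 (adjusted p = 0.912). Lfng was dim, with means of 38.4 and 55.2, and its change was 0.53 with an added constant of 1 and 0.22 with 64.

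**Figure D4:**
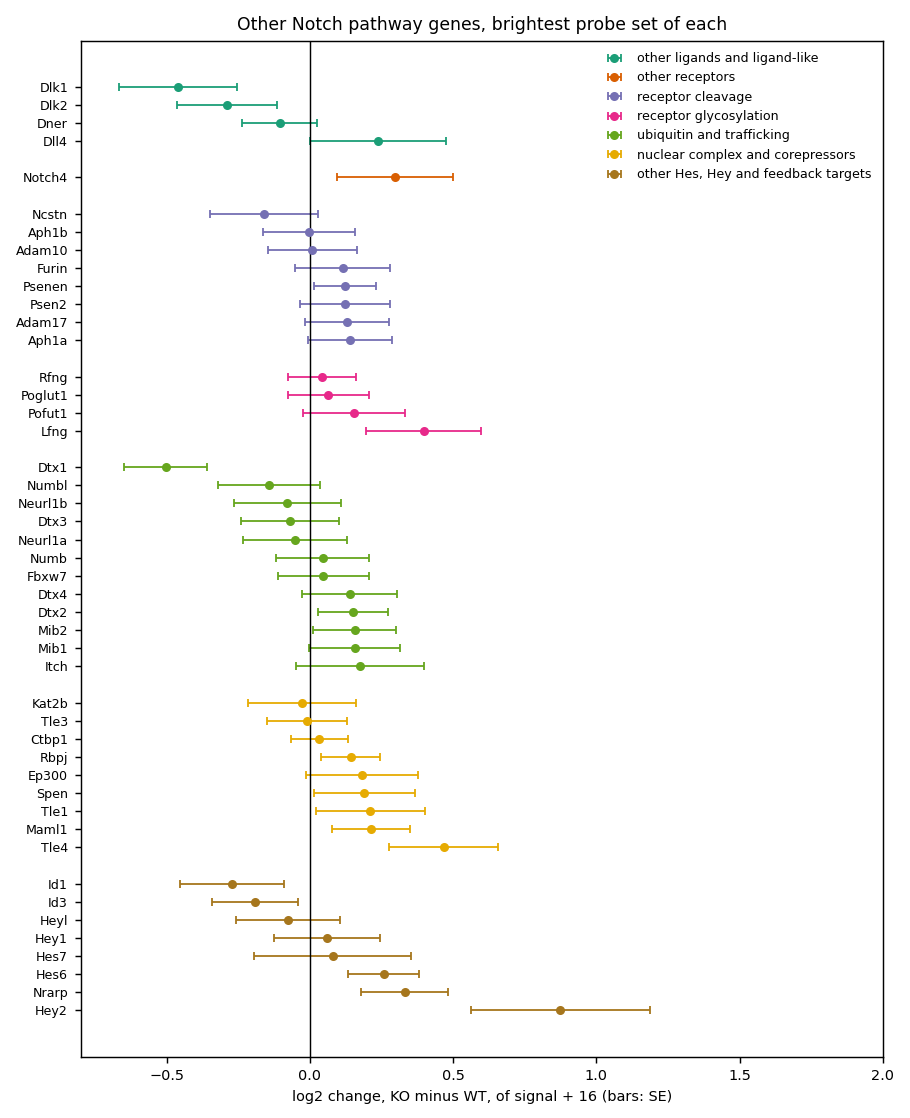
Log2 change from wild type (n = 5) to Bcl11b-/- (n = 6) of log2(signal + 16) for the brightest probe set of 46 further Notch pathway genes, grouped by role, with bars of 1 SE. None passed the test, and the values run from -0.50 for Dtx1 to 0.87 for Hey2.

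Cell type markers on the same arrays give the setting of these values. Of the neuronal precursor genes 2 of 4 passed the test, higher in Bcl11b-/- MOE, Neurog1 by 0.91 and Neurod1 by 0.66 on the log2 scale. The summed signal of all 4 ran from 3292 to 4304 in wild type and from 4171 to 6762 in mutant samples. Of the mature OSN genes 2 of 5 passed, both lower, Stoml3 and Gnal. Omp, Cnga2 and Adcy3 had log2 changes of -0.57, -0.46 and -0.37 without passing. The median of the 5 was -0.57. Their summed signal ran from 9273 to 12498 in wild type and from 5162 to 7176 in mutant samples. Of the erythroid genes 2 of 3 rose. No marker of sustentacular cells (0 of 4), horizontal basal cells (0 of 4), endothelial cells (0 of 5) or the other types passed the test, and no marker was at 0. The part of cell composition in the Hes5, Mfng and Hey2 values was not tested.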

How the data were processed

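Total RNA from each whole MOE was labelled as biotinylated cRNA in a 2-cycle reaction and hybridised to Affymetrix Mouse Genome 430 2.0 arrays. The deposited values are intensities on a linear scale, 1 signal for each probe set, which the authors obtained with GeneChip operating software (GCOS, version not given in the sources used here) and scaled linearly to the GAPDH probe set 1418625_s_at, at 10000 on every array. The authors tested differences with GeneSpring; none of its output was used here. Scanner files were not analysed here, so background correction could not be varied, and the number of arrays limits the precision.

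Signals were taken as log2(signal + 16), which understates the change of dim probe sets. Control probe sets and those with a mean signal under 20 were left out, and 33662 of 45101 were fitted with limma 3.58.1 in R 4.3.3 (lmFit and eBayes with an intensity trend, no covariate, Benjamini-Hochberg over all, threshold 0.05). In simulated data of the same 33662 probe sets, 98% of 50 log2 changes of 2 were called, 72% of 1, 64% of -1 and 10% of 0.5. The noise was drawn independently for each probe set and array, so shifts shared by many probe sets of an array were not simulated. Differences between genes on an array, and single probe sets, were tested by exact two-sided permutation over the 462 divisions of the arrays. Same-genotype arrays are separate mice, and no pair held identical values. Each further pathway gene was represented by its brightest tested probe set. Of the 54 listed, 46 were tested; Maml2, Hes2 and Hes3 were below the minimum signal, and the others were not analysed here. Named among them were those with a probe set past the threshold and the 8 of largest change. Rbpj was named for its role and Hes7 for its promoter match, both after the values were seen. Gene symbols came from the platform annotation, and all 107 listed symbols matched RefSeq.

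Alternatives changed 1 choice at a time: added constant, filter, trend, array weights, scaling (array median, quantile, spiked hybridization controls), sex, replicate block, and each array left out. The poly-A control groups, the omission of KO 2 and KO 3 and the second Hes5 probe set in the gene pair were chosen after seeing the data. The genes and lists were chosen with earlier results of these data known.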

Additional observations from a re-analysis of the deposited data

Results flagged for a closer look

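Among 62 groups of arrays examined for the Notch pathway genes named here other than Rbpj and Hes7, 7 held an array whose signal stood apart from the rest of its group by Dixon's criterion, where chance gives about 1 in 20. WT 4 was low for 3 genes: Notch3 1421965_s_at read 357.9 there against 504.3 on the nearest wild type array, Dll3 1449236_at 70.3 against 124.4, and Nrarp 1417985_at 360.1 against 515.2. WT 4 also had the lowest median signal of the 11 arrays, 56.6. WT 2 was high for Hey2 1418106_at, at 290.5 against 140.6, and for Notch4 1449146_at, at 185.1 against 107.4, and it had the highest wild type median signal, 85.7. WT 1 was high for the dim Jag1 1421105_at, at 49.5 against 31.1. KO 2 was low for the dim Tle4 1425650_at, at 9.2 against 36.4.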

How the results depend on the processing

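The count of Notch pathway probe sets past the threshold was 0, and 1 (Hes5 1456010_x_at) with array weights (adjusted p = 0.0308), with quantile normalization (0.0378) and without WT 2, with a range of 0 to 1 over single arrays left out. The count of further pathway genes was 0, and 1 with array weights, quantile normalization and scaling on spiked controls, 2 without KO 2 and KO 3, and 0 to 1 over single arrays left out, where the 1 came without KO 2. These were Tle4 1450853_at with array weights (0.66, adjusted p = 0.0480), Dtx1 after quantile normalization (-0.57, 0.0270) and on spiked controls (-0.69, 0.0192), Hey2 and Tle4 without KO 2 and KO 3 (1.21, 0.0391 and 0.72, 0.0264), and Hey2 without KO 2. The call of Tle1 1422751_at was lost without the intensity trend (adjusted p = 0.0560), on spiked controls (0.0783) and with the replicate block (0.225). Scaling on spiked controls moved the median of all probe sets from 0.047 to -0.12, and 11 of the 17 probe sets lay above that median, against 12 as deposited. On these controls Notch2 1455556_at was 0.029, Notch3 1421965_s_at 0.087, Dll1 0.030, Dll3 0.041 and Hes1 -0.34. Probe sets called over the array were 153 in the main fit. They were 345 with array weights, 293 quantile, 320 spiked controls, 229 array median and 91 with the replicate block. They were 226 with the poly-A control groups as a covariate and 284 without KO 2 and KO 3.

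The labels number replicates in both groups, but same-numbered samples did not deviate together (correlations from -0.28 to 0.0085). With these numbers as a block, Hes5 minus Hes1 was 0.96 (exact p = 0.0625, the smallest that 5 pairs allow). With Hes5 1423146_at it was 0.48 (exact p = 0.0433, and 0.130 adjusted over the 3 pairs), so the adjusted call was lost. In the other alternatives for Hes5 minus Hes1 the unadjusted exact p was at most 0.01. These all used the brighter Hes5 probe set. It was picked by a mean that included the mutant arrays, so they do not test that choice. Jag2 minus Jag1 stayed between -0.30 and -0.15. Dll3 minus Dll1 (0.0027) was -0.013 with male mice only or with sex as a covariate, -0.011 with the poly-A groups, -0.017 with a constant of 64, -0.12 without KO 2 and KO 3, and from -0.15 to 0.14 with single arrays left out.

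Single arrays moved some brighter probe sets by over 1.5 times: Notch1 1418634_at ran from 0.060 to 0.29, Notch2 1455556_at from 0.12 (without WT 4) to 0.32, Notch3 1421965_s_at from 0.16 (without WT 4) to 0.35, Dll1 from 0.11 (without KO 6) to 0.33 (without KO 3) and Hes1 from -0.28 to -0.049. Estimates near 0 changed sign. Hes1 was 0.036 with male mice only or sex as a covariate and 0.058 without KO 2 and KO 3. Without KO 2 and KO 3, Jag1 1421105_at was 0.13, Jag2 1426430_at 0.031, Notch1 1418633_at 0.12 and Notch3 1421964_at 0.095. With array weights, Jag1 1421105_at was 0.014 and Notch1 1418633_at 0.093. On spiked controls, Jag1 1434070_at was -0.10, Jag2 1426431_at -0.13, Notch1 1418634_at -0.020 and Nrarp 1417986_at -0.025, and Jag2 1426431_at was -0.010 after quantile normalization and -0.0067 on the array median. With single arrays left out, Jag1 1421105_at ran from -0.14 to 0.042, Jag1 1434070_at from -0.077 to 0.19, Jag2 1426431_at from -0.075 to 0.23, Notch1 1418633_at from -0.082 to 0.11 and Notch3 1421964_at from -0.15 to 0.052. The cause of these shifts was not tested. Simulated log2 changes of 0.5, with independent noise, were called in 10% of cases, and smaller ones were not simulated. By that figure, changes of the size of most estimates here would usually be missed.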
